A study of Homo sapiens with 12 samples.

Results

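The 49 genes described here act in the cell division cycle. They were taken by name and held apart as 18 genes of S phase, in which DNA is copied (MCM2 to MCM7, PCNA, GINS2, CDC6, CDT1, RRM1, RRM2, TYMS, CCNE1, CCNE2, CDC45, CLSPN and E2F1), and 31 genes of G2 and mitosis, called mitotic genes below. Each of the 49 matched 1 of the 65969 gene identifiers in the deposited table, and all 49 were among the 24898 that passed the filter on low counts. They were measured in 12 RNA sequencing libraries of embryoid bodies, which are floating clusters of differentiating stem cells. The cells were of H1 or MEL1, established lines of human embryonic stem cells, each transduced with a lentivirus and selected with puromycin. The vector held a doxycycline-inducible hairpin RNA: SCR, the control, or KD1, KD2 or KD3 against METTL14, a subunit of the enzyme that writes N6-methyladenosine on RNA. In every group, SCR included, aggregates of 500 cells per microwell were kept with doxycycline at 2 µg/ml and harvested at day 10. H1 gave 2 libraries each of SCR, KD1, KD2 and KD3, and MEL1 gave 1 of SCR, 2 of KD1 and 1 of KD2. The libraries of a group are numbered only to name them. Nothing in the labels says that they came from separate cultures or transductions, so p-values measure the spread between these libraries, which may be technical.

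Levels are given in CPM, the estimated count of a gene relative to the TMM-scaled total of its library. The MEL1 SCR library held 15963241 estimated counts and the others 36609628 to 43508287. The targeted gene was lower in every knockdown library: METTL14 was at 29.8 and 43.8 CPM with SCR, 11.1 and 10.99 with KD1, 17.7 and 14.8 with KD2 and 8.89 and 13.5 with KD3 in H1, and at 49.9 CPM with SCR, 8.03 and 5.94 with KD1 and 8.95 with KD2 in MEL1. Its log2 fold change over both lines was -1.96 (SE 0.23, adjusted p = 0.00266). The labels call the cells human embryonic stem cells. The summed level of 10 pluripotency markers was 2195 to 2316 CPM with SCR in H1 and 7368 CPM with SCR in MEL1, while 10 neural progenitor markers summed to 1246 to 1282 CPM in H1 SCR. In H1 SCR, 8 of 10 endoderm markers and 5 of 10 mesoderm and endothelium markers had a mean under 1 CPM. In these bulk samples, fewer dividing cells and less of a transcript in each cell cannot be told apart.

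A cell that enters S phase loads MCM helicases onto DNA with CDC6 and CDT1, fires them with CDC45 and GINS, and copies DNA on the PCNA clamp with nucleotides from RRM1, RRM2 and TYMS. Cyclin B with CDK1 then drives entry into mitosis, kinetochore and checkpoint proteins attach chromosomes and monitor their attachment, and CDC20 with UBE2C directs the destruction of securin and cyclins that ends it. Many S phase genes are transcribed under E2F factors. Many mitotic genes are transcribed under the DREAM and MuvB complexes with MYBL2 and FOXM1, which act through the CHR element in their promoters. CCAAT boxes often stand in the same promoters. Early embryonic cells divide fast with a short G1 phase, and division slows as they differentiate.

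The promoters of the members show the letters of these elements. RefSeq windows on GRCh38.p14, from 250 bases before to 50 bases after the start of a gene, were held for 15 S phase and 26 mitotic members. On both strands they were searched for the E2F motif (TTTGGCGC, TTTGCCGC, TTTCGCGC or TTTCCCGC), the CHR (TTTGAA or TTCGAA) and the CCAAT box (CCAAT). An E2F match stood in 11 of the 15 S phase windows and 3 of the 26 mitotic windows, against 3.33% of all 27305 windows. A CHR match stood in 2 of 15 and 19 of 26, against 16.6% of all. A CCAAT match stood in 11 of 15 and 20 of 26, against 35.7% of all. A match describes letters and no more. The 250 bases before the start are printed for 6 members, chosen after their values were seen, because the results below turn on them or because they show the contrast of the motifs. They run 5′ to 3′ on the strand of the gene, with all matches in capitals: MCM6 at chr2:135876444-135876693 on the minus strand, PCNA at chr20:5126623-5126872 on the minus strand, CCNB1 at chr5:69166900-69167149 on the plus strand, CCNB2 at chr15:59104896-59105145 on the plus strand, CENPA at chr2:26785806-26786055 on the plus strand and PLK1 at chr16:23678639-23678888 on the plus strand.
MCM6: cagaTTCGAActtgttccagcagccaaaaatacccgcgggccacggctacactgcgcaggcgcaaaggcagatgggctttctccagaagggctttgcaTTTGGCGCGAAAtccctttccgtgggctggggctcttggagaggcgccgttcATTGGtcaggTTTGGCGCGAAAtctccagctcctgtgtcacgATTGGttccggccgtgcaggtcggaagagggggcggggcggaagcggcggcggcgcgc
PCNA: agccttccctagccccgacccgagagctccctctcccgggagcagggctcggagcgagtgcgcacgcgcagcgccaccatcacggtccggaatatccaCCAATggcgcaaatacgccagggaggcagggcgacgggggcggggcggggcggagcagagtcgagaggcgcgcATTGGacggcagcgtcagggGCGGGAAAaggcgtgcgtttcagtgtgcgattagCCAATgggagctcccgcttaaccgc
CCNB1: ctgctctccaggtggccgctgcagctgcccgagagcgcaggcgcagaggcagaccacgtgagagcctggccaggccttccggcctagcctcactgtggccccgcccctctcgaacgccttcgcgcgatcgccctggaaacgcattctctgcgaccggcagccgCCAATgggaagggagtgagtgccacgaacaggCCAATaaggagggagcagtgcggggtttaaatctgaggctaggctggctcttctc
CCNB2: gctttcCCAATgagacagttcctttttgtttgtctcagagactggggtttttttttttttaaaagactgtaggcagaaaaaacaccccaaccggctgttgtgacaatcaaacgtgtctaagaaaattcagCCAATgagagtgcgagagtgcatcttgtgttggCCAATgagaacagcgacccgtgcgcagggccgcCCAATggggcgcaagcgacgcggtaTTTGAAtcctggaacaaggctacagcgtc
CENPA: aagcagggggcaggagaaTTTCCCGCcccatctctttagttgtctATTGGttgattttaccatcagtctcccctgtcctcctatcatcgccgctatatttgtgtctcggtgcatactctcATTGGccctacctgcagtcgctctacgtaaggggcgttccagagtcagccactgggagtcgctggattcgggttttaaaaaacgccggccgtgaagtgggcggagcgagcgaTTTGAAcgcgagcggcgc
PLK1: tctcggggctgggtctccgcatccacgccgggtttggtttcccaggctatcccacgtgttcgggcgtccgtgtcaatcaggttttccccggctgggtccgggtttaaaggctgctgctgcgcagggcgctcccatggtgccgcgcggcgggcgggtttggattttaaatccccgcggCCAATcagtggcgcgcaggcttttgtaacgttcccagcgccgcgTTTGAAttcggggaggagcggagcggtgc

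MCM6 held 4 E2F matches in 2 pairs, each an overlap of a match on one strand with a match on the other, besides 1 CHR match and 2 CCAAT boxes on the minus strand of the gene. PCNA held 1 E2F match and 3 CCAAT boxes, and no CHR match. CCNB2 had 4 CCAAT boxes upstream of 1 CHR match that began 29 bases before the start. PLK1 also had its CHR match at 29 bases, with 1 CCAAT box at 73. CENPA had 1 E2F match, 2 CCAAT boxes and 1 CHR match. The CCNB1 stretch had 2 CCAAT boxes and neither an E2F nor a CHR match under these letters.

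In H1, genes of both lists were lower with the METTL14 hairpins than with SCR. For the average of the 3 hairpins against SCR, 10 of 18 S phase genes fell and 0 rose, and 13 of 31 mitotic genes fell and 0 rose. Over all genes tested, 4.93% were called lower and 2.23% higher. The median log2 fold change was -0.46 for the S phase genes and -0.43 for the mitotic genes, and 0.01 over all genes. The test was edgeR's quasi-likelihood F-test with Benjamini-Hochberg adjustment over all genes, and a gene is said to rise or fall where its adjusted p was under 0.05. All 6 knockdown libraries lay below both SCR libraries for 12 S phase and 17 mitotic members, among them all 23 that fell. Over all genes this held for 11.7%. No member had all 6 libraries above SCR, against 8.61% of all genes. These calls rested on 1 control: without H1 SCR library 2 no S phase gene was called and only CENPA among the mitotic genes, with 0.496% of all genes called, while the medians were -0.39 and -0.29. Without H1 SCR library 1, 7 S phase and 15 mitotic genes were called, with 3.68% of all genes. The mitotic count was 8 without KD1 library 2, 7 without KD2 library 2 and 8 without KD3 library 2, with 3.40%, 3.70% and 4.49% of all genes called.

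Among S phase genes, the 3 that make nucleotides (RRM1, RRM2 and TYMS) all fell. RRM2, the regulated subunit of ribonucleotide reductase (ENSG00000171848 on chromosome 2 at 10120698 to 10131419, plus strand, GENCODE 29 on GRCh38), was at 111 and 128 CPM with SCR, 50.3 and 52.8 with KD1, 93.8 and 74.9 with KD2 and 77.4 and 79.4 with KD3. All 6 knockdown libraries were below the lower SCR library, with KD1 lowest, and the log2 fold change of the average was -0.77 (SE 0.10, adjusted p = 0.00326). RRM1, the large subunit of the same enzyme, was at 234 and 261 CPM with SCR, 155 and 144 with KD1, 211 and 185 with KD2 and 179 and 194 with KD3. Its groups did not overlap either, and its log2 fold change was -0.48 (SE 0.09, adjusted p = 0.01398). TYMS, thymidylate synthase, was at 167 and 177 CPM with SCR, 102 and 101 with KD1, 111 and 104 with KD2 and 136 and 133 with KD3. Here the KD2 libraries were nearly as low as those of KD1, and the log2 fold change was -0.60 (SE 0.08, adjusted p = 0.00355).

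CCNE1 encodes cyclin E1, which with CDK2 drives entry into S phase (ENSG00000105173 on chromosome 19 at 29811898 to 29824308, plus strand). It was at 26.7 and 29.1 CPM with SCR, 13.9 and 14.8 with KD1, 26.7 and 21.4 with KD2 and 13.6 and 12.9 with KD3. KD1 and KD3 stood together, from 12.9 to 14.8 CPM, while 1 KD2 library equalled the lower SCR library at the precision printed. Its log2 fold change was -0.75 (SE 0.11, adjusted p = 0.00489). CCNE2, the other cyclin E gene, was at 3.23 and 7.54 CPM with SCR, 1.87 and 2.79 with KD1, 6.53 and 3.78 with KD2 and 4.19 and 6.07 with KD3; its SCR libraries enclosed the KD2 and KD3 values and it was not called (log2 fold change -0.45, SE 0.33, adjusted p = 0.456). E2F1, a transcription factor of S phase genes, was at 32.5 and 35.7 CPM with SCR, 21.7 and 26.2 with KD1, 39.9 and 28.2 with KD2 and 30.4 and 32.6 with KD3. Only KD1 stood below both SCR libraries as a pair, and the average log2 fold change was -0.21 (SE 0.14, adjusted p = 0.397).

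The genes that license and fire origins differed among themselves. CDC6, which loads the MCM helicase, was at 81.3 and 90.3 CPM with SCR, 41.4 and 47.8 with KD1, 65.2 and 52.6 with KD2 and 59.7 and 57.6 with KD3. No knockdown library reached the SCR range, and the log2 fold change was -0.68 (SE 0.10, adjusted p = 0.005203). CDT1, its partner in loading, was at 57.4 and 50.2 CPM with SCR, 68.3 and 68.8 with KD1, 49.98 and 53.7 with KD2 and 56.1 and 45.98 with KD3, with KD1 above both SCR libraries and the others within or below their range (log2 fold change 0.07, SE 0.12, adjusted p = 0.767). MCM4, a helicase subunit, was at 305 and 338 CPM with SCR, 151 and 174 with KD1, 293 and 225 with KD2 and 252 and 257 with KD3, with all knockdown libraries below SCR (log2 fold change -0.55, SE 0.11, adjusted p = 0.0176). GINS2, a part of the active helicase, was at 78.5 and 80.01 CPM with SCR, 45.8 and 45.5 with KD1, 71.8 and 60.6 with KD2 and 58.7 and 59.7 with KD3, again without overlap (log2 fold change -0.49, SE 0.09, adjusted p = 0.0139). MCM2 was at 251 and 255 CPM with SCR, 167 and 211 with KD1, 260.1 and 223 with KD2 and 241 and 227 with KD3. One KD2 library of MCM2 was above SCR, and its log2 fold change was -0.20 (SE 0.10, adjusted p = 0.279). Of the other helicase subunits MCM6 and MCM7 fell, by log2 fold changes of -0.48 and -0.40, and MCM3 and MCM5 were at log2 fold changes of -0.32 and -0.25 with adjusted p of 0.0719 and 0.169. CDC45 and CLSPN, which act at the fork, were at -0.34 and -0.32 and were not called.

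PCNA, the sliding clamp of the replication fork (ENSG00000132646 on chromosome 20 at 5114953 to 5126626, minus strand), had the highest level per length of all 49 members in H1 SCR, 185 CPM per kilobase of its longest transcript. The lowest was CENPE, a kinetochore motor, at 0.933. PCNA was at 246 and 258 CPM with SCR, 103 and 116 with KD1, 211 and 163 with KD2 and 182 and 196 with KD3. KD1 was below KD2 and KD3, which were themselves below SCR, and the log2 fold change of the average was -0.68 (SE 0.11, adjusted p = 0.00819).

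**Figure D1:**
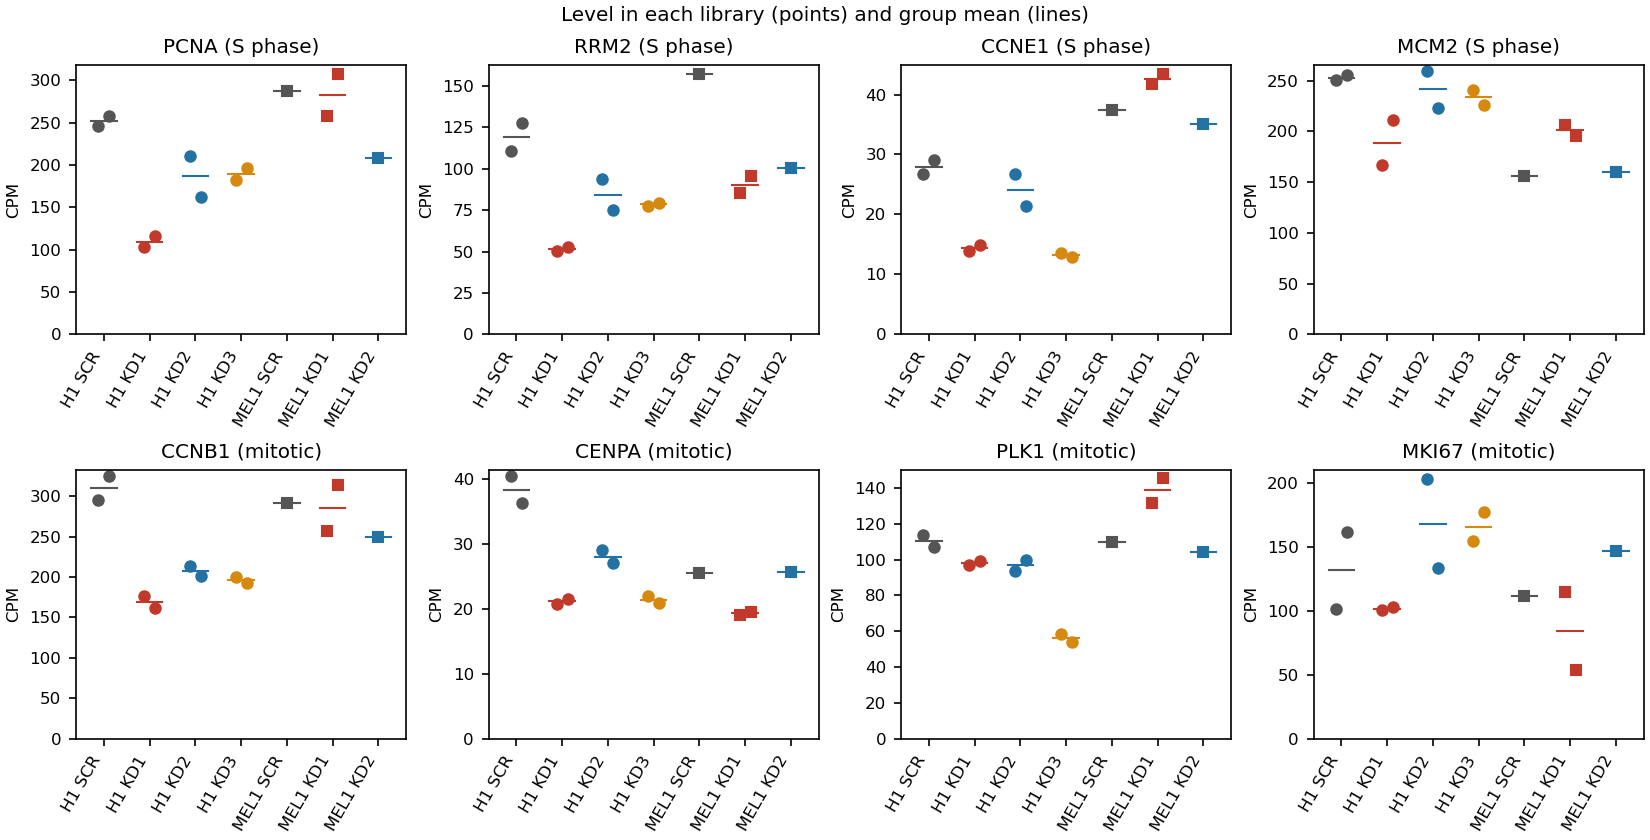
CPM of 4 S phase and 4 mitotic members in each of the 12 libraries (points; circles H1, squares MEL1), with a line at the mean of each group and a vertical axis that starts at 0. In H1, RRM2 ran from 50.3 to 93.8 CPM in the knockdown libraries and from 111 to 128 with SCR, PLK1 was low with KD3, and MKI67 overlapped between SCR and knockdown.

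Among mitotic genes, the drivers of mitotic entry fell. CCNB1, cyclin B1 (ENSG00000134057 on chromosome 5 at 69167010 to 69178245, plus strand), was at 295 and 325 CPM with SCR, 177 and 162 with KD1, 214 and 201 with KD2 and 200.2 and 192 with KD3. Its highest knockdown library was below its lowest SCR library, and the log2 fold change was -0.70 (SE 0.09, adjusted p = 0.00345). CDK1, the kinase that cyclin B activates, was at 140.1 and 186 CPM with SCR, 106 and 84.7 with KD1, 125 and 126 with KD2 and 89.4 and 103 with KD3. SCR library 2 stood above SCR library 1, both were above every knockdown library, and the log2 fold change was -0.64 (SE 0.12, adjusted p = 0.0147). CDC25C, the phosphatase that switches CDK1 on, was at 35.3 and 46.8 CPM with SCR, 27.5 and 23.5 with KD1, 31.3 and 27.7 with KD2 and 25.5 and 23.8 with KD3, also without overlap (log2 fold change -0.63, SE 0.12, adjusted p = 0.0161). CCNA2, cyclin A2, was at 139.6 and 157 CPM with SCR, 103 and 87.1 with KD1, 127 and 117 with KD2 and 105 and 104 with KD3, with a smaller difference (log2 fold change -0.47, SE 0.10, adjusted p = 0.0205). CCNB2, cyclin B2, fell by 0.43 on the log2 scale (adjusted p = 0.0392).

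Of the genes of centromeres, checkpoint and cytokinesis, CENPA had the largest fall among the mitotic genes called. CENPA, the histone H3 variant of centromeres (ENSG00000115163 on chromosome 2 at 26764289 to 26801067, plus strand), was at 40.4 and 36.4 CPM with SCR, 20.8 and 21.5 with KD1, 29.1 and 27.03 with KD2 and 21.9 and 20.9 with KD3. The groups were apart, and the log2 fold change of -0.72 (SE 0.10, adjusted p = 0.00345) was called in each of 18 alternative settings, its adjusted p reaching 0.0291 at most. BIRC5, survivin of the chromosomal passenger complex, was at 165 and 170.5 CPM with SCR, 109 and 95.97 with KD1, 138 and 117 with KD2 and 117 and 103 with KD3 (log2 fold change -0.57, SE 0.10, adjusted p = 0.0123). BUB1, a checkpoint kinase, was at 139.9 and 175 CPM with SCR, 105 and 90.7 with KD1, 136 and 125 with KD2 and 118 and 116 with KD3 (log2 fold change -0.46, SE 0.10, adjusted p = 0.0227). For both, the lowest library was of KD1 and no knockdown library reached SCR. The KD1 and KD3 libraries of BIRC5 overlapped. PTTG1 encodes securin, which restrains the separation of sister chromatids until anaphase. It was at 177 and 192 CPM with SCR, 139 and 99.2 with KD1, 126 and 135 with KD2 and 120.4 and 111 with KD3 (log2 fold change -0.60, SE 0.13, adjusted p = 0.0252). PLK1 and AURKA, kinases of the spindle poles, KIF20A, a kinesin of cytokinesis, and NUSAP1, a spindle protein, fell with log2 fold changes of -0.44, -0.36, -0.36 and -0.40. AURKB, CDC20, TPX2 and UBE2C were at -0.24, -0.27, -0.28 and -0.38 and did not pass, although all their knockdown libraries lay below SCR.

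Each of the other 14 mitotic members had at least 1 knockdown library within or above the SCR range, and none was called in the average. MKI67, which encodes the proliferation marker Ki-67, was at 101 and 162 CPM with SCR, 100.3 and 103 with KD1, 203 and 133 with KD2 and 154 and 177 with KD3. Its SCR libraries enclosed 3 of the 6 knockdown values, and the log2 fold change was 0.10 (SE 0.31, adjusted p = 0.8901), or -0.18 without SCR library 1. TOP2A, the topoisomerase that untangles chromosomes, was at 321 and 605 CPM with SCR, 421 and 355 with KD1, 578 and 453 with KD2 and 448 and 522 with KD3. All 6 of its knockdown libraries lay between the SCR libraries (log2 fold change -0.01, SE 0.24, adjusted p = 0.998). Without SCR library 2 its log2 fold change was 0.52, and without SCR library 1 -0.39. The rest of the 14 are BUB1B, TTK, CENPE, CENPF, KIF11, KIF23, HMMR, DLGAP5, ANLN, ECT2, NUF2 and NDC80, with log2 fold changes from -0.75 (HMMR, adjusted p = 0.118) to 0.20 (CENPE, 0.627).

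The SCR libraries lay farther apart for these 14 than for most other mitotic members. The ratio of H1 SCR library 2 to library 1 ran from 1.29 to 2.00 for them, with a median of 1.77, and from 0.899 to 1.33, with a median of 1.03, for the 17 whose groups were apart. Overlap of the groups is more likely where the controls lie wide apart, so this split is in part built in. The ratio followed the GC content of the transcript, with a Spearman rho of -0.793 across the 49 members, which share both libraries. GC content had a median of 39.6% for the 14 and 47.6% for the 17. ECT2, a regulator of cytokinesis, had a ratio of 2.004 at 38.04% GC, and TOP2A 1.88 at 39.1%, whereas PLK1 had 0.939 at 57.1% and UBE2C 0.955 at 50.00%. For the S phase genes the ratio had a median of 1.08, and the highest were CCNE2 at 2.34 and CLSPN at 2.103, both among the 6 with overlap. Over 15601 genes, the log level in a library, relative to the mean of the gene over its line, was correlated with GC content. The rho was 0.217 in SCR library 1 and -0.414 in SCR library 2. It was 0.294 and 0.551 in the H1 KD1 libraries, -0.206 and 0.115 in those of KD2, and 0.011 and -0.496 in those of KD3. With a trend on GC content and length removed from each library, 12 S phase and 17 mitotic genes were called in the average, with 11.8% of all genes. Across the members the rho of the log2 fold change with GC content was 0.148 for the average and 0.398 for KD1.

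**Figure D2:**
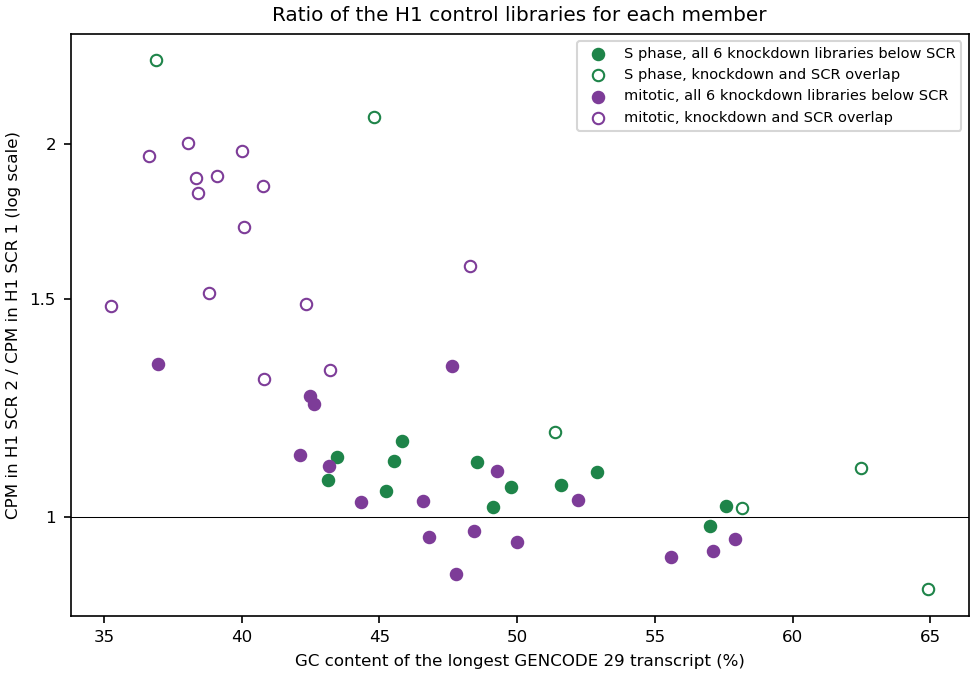
Ratio of CPM in H1 SCR library 2 to library 1 (log scale) against GC content of the longest transcript in percent, 1 point for each of the 49 members, filled where all 6 knockdown libraries lay below SCR. The open mitotic points sit at ratios of 1.29 to 2.00 and the filled ones at 0.899 to 1.33.

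Each hairpin was also set against SCR by itself, and the 3 comparisons share the SCR libraries. With KD1, 12 S phase and 14 mitotic genes fell, against 6.83% of all genes, and the medians were -0.77 and -0.63. With KD2, TYMS and CCNB1 fell and no other member, against 0.851% of all genes, and the medians were -0.24 and -0.23. With KD3, 3 S phase genes (CDC6, RRM2 and CCNE1) and 7 mitotic genes (CCNB1, CDK1, CDC25C, PLK1, BIRC5, CENPA and KIF20A) fell, against 1.79% of all genes, and the medians were -0.34 and -0.43. No member rose with any hairpin, where 4.25% of all genes rose with KD1, 0.691% with KD2 and 1.19% with KD3. CCNB1 was the member called with all 3, at log2 fold changes of -0.87 (adjusted p = 0.00394), -0.58 (adjusted p = 0.0436) and -0.66 (adjusted p = 0.0183). KD1 gave the lowest of the 3 fold changes for 16 of 18 S phase and 22 of 31 mitotic genes, and KD3 for 2 and 9. RRM2 and PCNA had the lowest called values with KD1, -1.21 (SE 0.13, adjusted p = 0.00161) and -1.20 (SE 0.14, adjusted p = 0.00222). NDC80, NUF2, DLGAP5 and BUB1B, of kinetochore, spindle and checkpoint, fell with KD1 although not in the average.

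Several of these counts rested on single libraries. For KD1, the counts were 2 S phase and 1 mitotic gene without KD1 library 1, 9 and 2 without KD1 library 2, and 9 and 2 without SCR library 2, where 0.832%, 1.76% and 1.58% of all genes were called. For KD2, TYMS was lost without SCR library 2 or either KD2 library, and CCNB1 without any 1 of the 8 H1 libraries. For KD3, the S phase count was 0 without KD3 library 2 and 1 without KD3 library 1, either SCR library or either KD1 library. The mitotic count with KD3 was 2 without KD3 library 1, 1 without KD3 library 2 and 2 without SCR library 2, where 1.56%, 0.433% and 0.911% of all genes were called. Where 1 library was left in a group, that library was assumed to vary like the other groups.

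**Figure D3:**
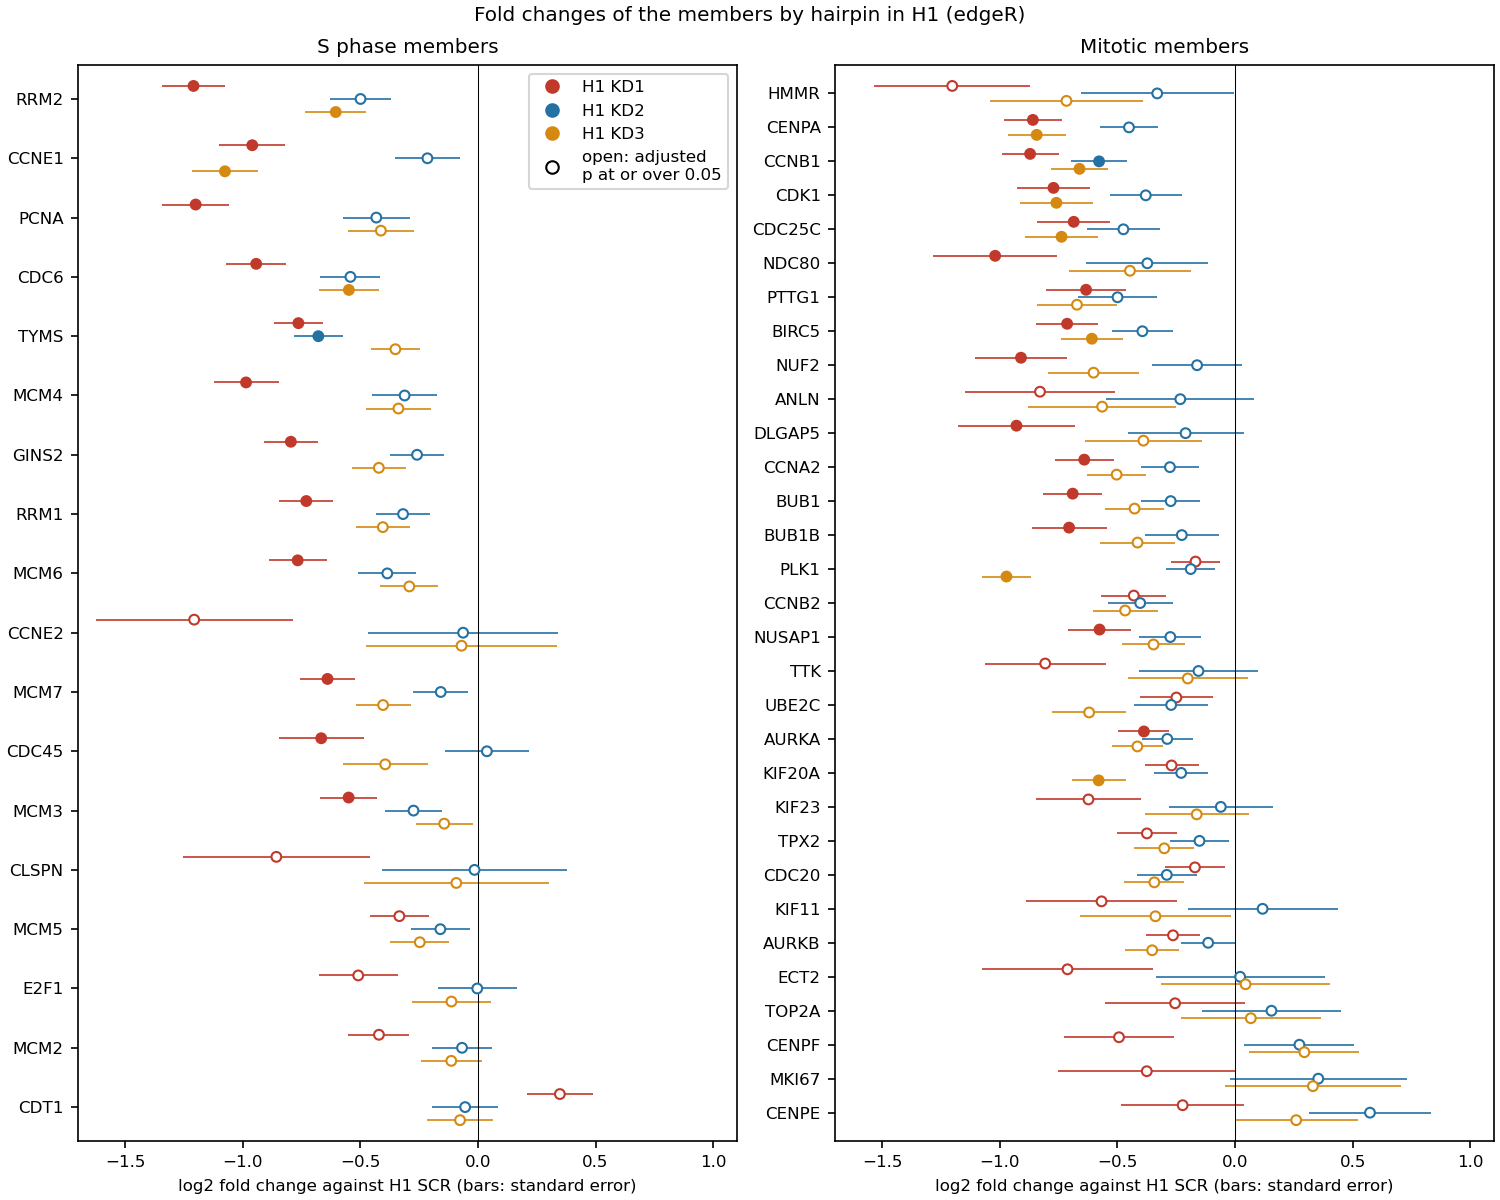
Log2 fold change against H1 SCR for each hairpin (colours; bars are 1 SE; filled where adjusted p was under 0.05) for the 18 S phase and 31 mitotic members, sorted by the average. KD1 lies leftmost for 16 of 18 S phase genes, and PLK1 stands out with KD3 at -0.97.

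The hairpins were compared with each other without use of SCR. The correlation of level with GC content given above was higher in both KD1 libraries than in those of KD2 and KD3. Counts with that trend removed are given in the last section. In the test of any difference among KD1, KD2 and KD3, 4 S phase genes were called (CCNE1, adjusted p = 0.0121; PCNA, 0.0205; RRM2, 0.0274; MCM4, 0.0348) and 1 mitotic gene (PLK1, 0.00409), against 3.54% of all genes. The pairwise tests called 0.851% of all genes for KD2 against KD1, 4.63% for KD3 against KD1 and 1.01% for KD3 against KD2. PCNA was higher with KD2 and with KD3 than with KD1, by log2 differences of 0.77 (SE 0.14, adjusted p = 0.0361) and 0.79 (SE 0.14, adjusted p = 0.0148). RRM2 was likewise higher with KD2 (log2 difference 0.71, adjusted p = 0.0357) and KD3 (log2 difference 0.60, adjusted p = 0.0286). MCM4 was higher with KD3 than with KD1 (log2 difference 0.65, adjusted p = 0.0264), and at 0.67 (adjusted p = 0.0517) for KD2 against KD1. TYMS was also higher with KD3 than with KD1 (log2 difference 0.41, adjusted p = 0.0475), the last of the 4 S phase genes called in that pair. CCNE1 had another order: KD2 was above KD1 by 0.74 (SE 0.14, adjusted p = 0.0371) and KD3 was below KD2 (log2 difference -0.86, SE 0.14, adjusted p = 0.0193), with KD1 and KD3 at a log2 difference of -0.12 (adjusted p = 0.691).

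PLK1, Polo-like kinase 1 of mitotic entry and the spindle (ENSG00000166851 on chromosome 16 at 23677656 to 23690367, plus strand), was lowest with KD3. It was at 114 and 107 CPM with SCR, 97.1 and 99.1 with KD1, 93.7 and 99.7 with KD2 and 58.5 and 53.9 with KD3. KD1 and KD2 were below SCR and the KD3 libraries were the lowest of all 12, with log2 differences of -0.80 (SE 0.11, adjusted p = 0.00386) from KD1 and -0.78 (SE 0.11, adjusted p = 0.00801) from KD2. Against SCR the values were -0.17 (SE 0.10, adjusted p = 0.343) for KD1, -0.19 (SE 0.10, adjusted p = 0.412) for KD2 and -0.97 (SE 0.11, adjusted p = 0.00136) for KD3. The test among hairpins lost CCNE1, PCNA, RRM2 and MCM4 without either KD1 library or without KD3 library 2. It lost CCNE1 and RRM2 without KD2 library 1. In each of these fits a smaller share of all genes was called than with all libraries. PLK1 was lost without KD3 library 2, at an adjusted p of 0.0549. MCM4 was also lost without KD3 library 1, without either MEL1 KD1 library and in a fit of the H1 libraries alone. Without either SCR library, more mitotic genes and a larger share of all genes were called than with all libraries.

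In MEL1 the control is 1 library, so its values are described with no test. Level was also correlated with GC content over 15601 genes here, with rho of -0.543 for the control. For MEL1 KD1 rho was 0.351 and 0.422, and for MEL1 KD2 -0.056. Of the genes named below, CDT1 and MCM5 had GC contents of 64.9% and 57.0%. RRM2, CDK1, BUB1B, CCNB1 and PCNA had 45.8%, 37.0%, 43.2%, 43.2% and 45.3%. The part of GC content in the MEL1 differences was not tested, nor its part in the overlap counts over both lines. The median log2 fold change of the S phase genes was -0.12 with KD1 and -0.34 with KD2, and that of the mitotic genes -0.29 and -0.23. All 3 knockdown libraries lay below the SCR library for 11 of 18 S phase and 17 of 31 mitotic genes, where 25.7% of all genes did so, and above it for 2 and 1, where 31.6% did. RRM2 was at 157 CPM with SCR, 85.04 and 95.7 with KD1 and 101 with KD2, with all knockdown libraries below SCR. CDK1 was at 173 CPM with SCR, 124 and 134 with KD1 and 113 with KD2 and BUB1B at 236 CPM with SCR, 160.0 and 143 with KD1 and 142 with KD2, again all below. CCNB1 was at 291 CPM with SCR, 258 and 314 with KD1 and 249.1 with KD2, and PCNA at 287 CPM with SCR, 258 and 308 with KD1 and 209 with KD2, so that 1 KD1 library of each was above SCR. CDT1 was at 38.3 CPM with SCR, 69.5 and 86.3 with KD1 and 36.8 with KD2 and MCM5 at 190.5 CPM with SCR, 275 and 279 with KD1 and 174 with KD2, both higher with KD1 than with SCR.

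Across both lines, all 9 knockdown libraries lay below the SCR libraries of their line for 8 S phase genes (MCM3, MCM4, MCM6, GINS2, CDC6, RRM1, RRM2 and TYMS) and 7 mitotic genes (CCNB2, CDK1, CDC25C, AURKA, BUB1, KIF20A and NUSAP1), against 3.96% of all genes. The test of 9 knockdown against 3 SCR libraries with line as covariate, in which differences between hairpins and lines count as spread, called 0 members, against 0.213% of all genes. At an unadjusted p under 0.05 there were 9 S phase and 18 mitotic genes, and 3918 of all 24898 genes tested. The smallest adjusted p were 0.0558 for CDC6 and 0.0769 for CDK1, at log2 fold changes of -0.61 and -0.58. DESeq2 called 5 and 12 members in this comparison, with 5.0% of all genes, and a model of the group means 10 and 14, with 10.8% of all genes. Without MEL1 KD1 library 2 edgeR called 3 and 4, with 1.12% of all genes, and without H1 KD2 library 1 it called 2 and 0, with 0.186%. The test of whether the KD1 and KD2 effect differed between the lines called 0 members, against 0.598% of all genes. At an unadjusted p under 0.05 it had 6 S phase and 4 mitotic genes, and 4282 of all 24898 genes tested. DESeq2 called 0 and 0 members, with 3.02% of all genes. MEL1 has 1 SCR and 1 KD2 library, so the spread in the tests between lines comes from the other groups and these libraries are assumed to vary like them. The smallest adjusted p there was 0.129, for CCNB1, whose fold change was higher in MEL1 by 0.60 on the log2 scale.

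**Figure D4:**
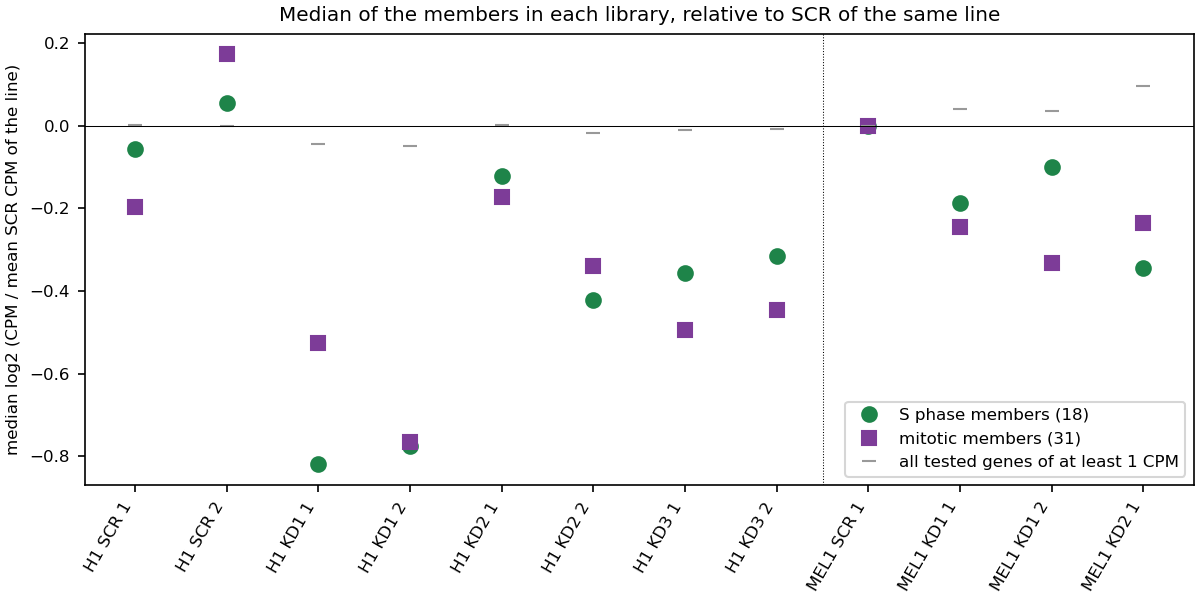
Median over the 18 S phase genes (circles) and 31 mitotic genes (squares) of log2 CPM relative to the mean SCR of the same line, for each library, with the median of all tested genes of at least 1 CPM (dashes). The KD1 libraries of H1 are lowest, at -0.82 and -0.78 for S phase genes, and the H1 SCR libraries lie at -0.20 and 0.17 for mitotic genes.

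By library, the S phase median in H1 was -0.82 and -0.78 with KD1, -0.12 and -0.42 with KD2, and -0.36 and -0.31 with KD3, relative to mean SCR. The mitotic median was -0.53 and -0.77 with KD1, -0.17 and -0.34 with KD2, and -0.49 and -0.45 with KD3. The SCR libraries themselves were at -0.06 and 0.05 for S phase genes and at -0.20 and 0.17 for mitotic genes. Hence the mitotic median of KD2 library 1 lay between the SCR libraries, and those of the other 5 knockdown libraries lay below both.

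The level of the members differed between the lines in both directions. At matched SCR, KD1 and KD2, 10 S phase genes were higher in MEL1 and 2 lower, and 10 mitotic genes higher and 4 lower, where 23.0% of all genes were higher and 26.2% lower. In either direction 12 of 18 S phase and 14 of 31 mitotic genes were called, against 49.1% of all genes. The mitotic count was thus near the share of all genes. The median log2 difference was 0.47 for the S phase genes and 0.12 for the mitotic genes, against -0.09 over all genes. CDC6 was at 181 CPM with SCR, 131 and 134 with KD1 and 124 with KD2 in MEL1, above every H1 library, with a log2 difference of 1.24 (SE 0.08, adjusted p = 4.27e-07). CCNE1 was at 37.4 CPM with SCR, 41.7 and 43.4 with KD1 and 35.1 with KD2, also above all of H1 (log2 difference 0.85, SE 0.09, adjusted p = 1.68e-05). MCM3, a helicase subunit, was at 524 CPM with SCR, 498 and 480.0 with KD1 and 366 with KD2 against 355 and 377 CPM with SCR, 237 and 263 with KD1, 333 and 273 with KD2 and 340.5 and 323 with KD3 in H1 (log2 difference 0.58, SE 0.08, adjusted p = 1.11e-04), so that MEL1 KD2 lay within the range of H1 SCR. PCNA was higher by 0.57 (SE 0.09, adjusted p = 3.83e-04). AURKB, the passenger complex kinase, was at 116 CPM with SCR, 124 and 139.9 with KD1 and 106 with KD2 against 88.4 and 82.1 CPM with SCR, 73.3 and 68.7 with KD1, 77.7 and 79.8 with KD2 and 71.7 and 61.8 with KD3 in H1 (log2 difference 0.59, SE 0.08, adjusted p = 6.43e-05). AURKA and BIRC5 were higher by 0.53 and 0.59.

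CENPF, a kinetochore protein of G2, went the other way. It was at 53.5 CPM with SCR, 39.1 and 25.9 with KD1 and 49.7 with KD2 in MEL1 and at 62.4 and 80.7 CPM with SCR, 50.3 and 51.3 with KD1, 104 and 69.1 with KD2 and 79.9 and 95.7 with KD3 in H1, with some overlap (log2 difference -0.62, SE 0.16, adjusted p = 0.00978). MCM2 was lower in MEL1 too (log2 difference -0.40, SE 0.09, adjusted p = 0.00289), as were CDT1, CENPA, NUSAP1 and CDC20. Pluripotency markers moved with the line: POU5F1, the OCT4 gene, was at 496 CPM with SCR, 798 and 879 with KD1 and 239.9 with KD2 in MEL1 and at 62.2 and 58.6 CPM in H1 SCR. HES5, ELAVL4 and NEUROD1, of neural progenitors and neurons, were at 0 in the MEL1 SCR library, the shallowest. There the 10 neural progenitor markers summed to 677 CPM and the 10 neuron markers to 197 CPM. In H1 SCR these sums were 1246 to 1282 CPM and 588 to 666 CPM. The part of cell identity in the line difference was not tested, and the line cannot be told apart from anything else that separates these libraries.

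**Figure D5:**
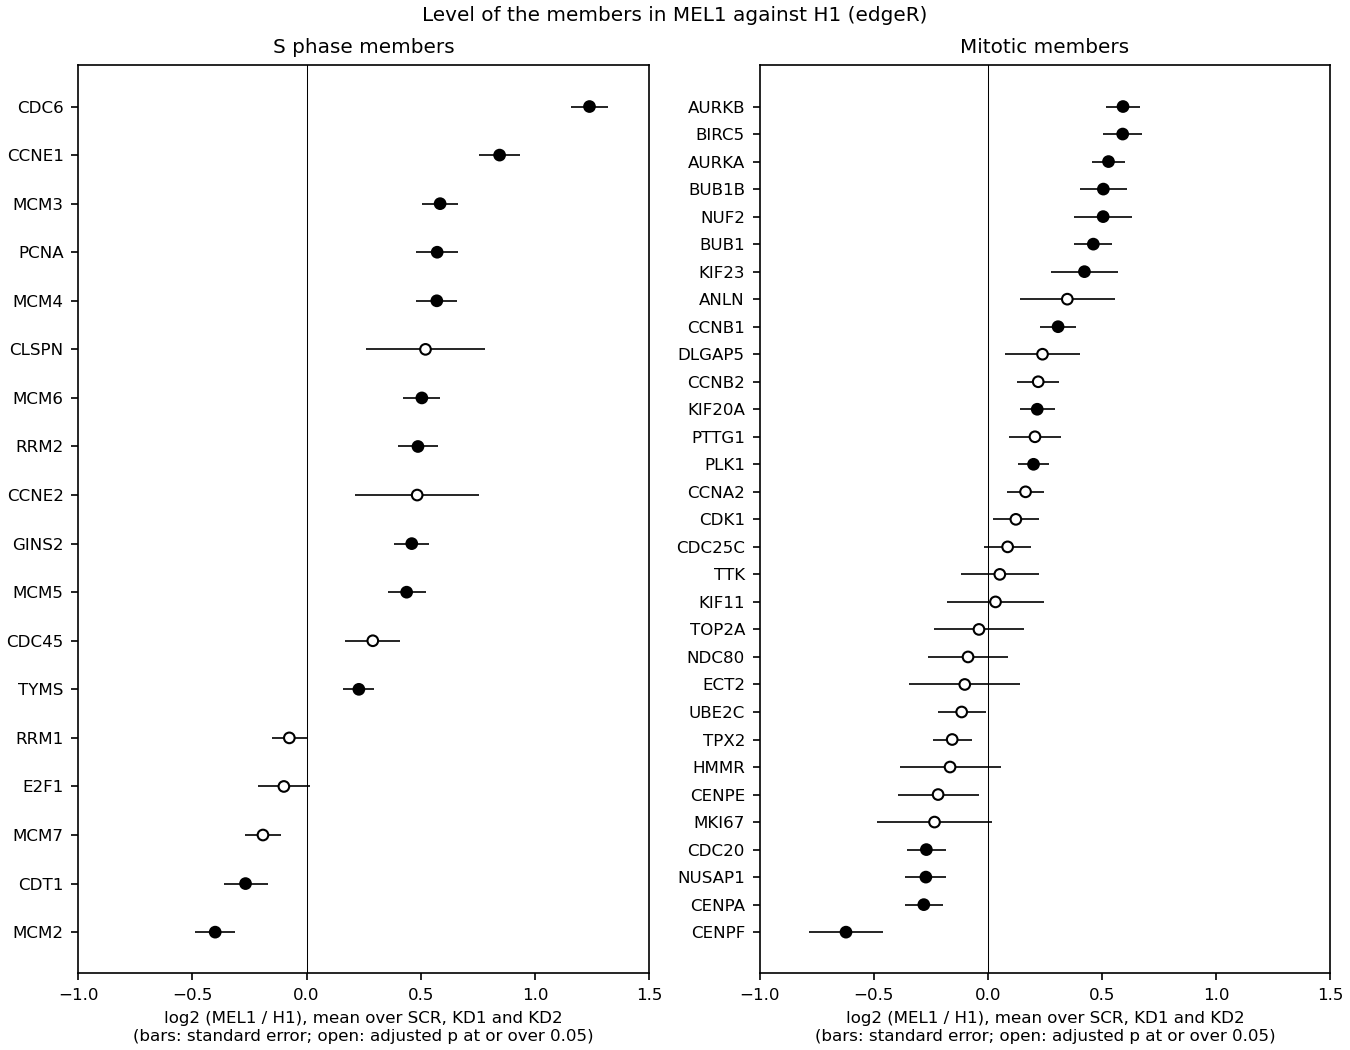
Log2 difference in level between MEL1 and H1 over SCR, KD1 and KD2 (points; bars are 1 SE; filled where adjusted p was under 0.05) for each member. CDC6 is farthest to the right at 1.24 and CENPF farthest to the left at -0.62.

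Other genes of the same processes, from lists made for this comparison, were read beside the members. The lists were chosen with earlier results of these data known, so they are no independent check. In the H1 average, 16 of 45 further replication genes fell and 0 rose (median log2 fold change -0.38). Of 55 further mitosis genes, 18 fell and 0 rose (median -0.30). Over all genes, 4.93% fell and 2.23% rose, with a median of 0.01. RPA3, a subunit of the single-strand binding protein, was at 60.6 and 67.4 CPM with SCR, 35.1 and 32.2 with KD1, 42.00 and 46.2 with KD2 and 36.5 and 39.2 with KD3 (log2 fold change -0.74, SE 0.13, adjusted p = 0.01197). GMNN, the inhibitor of CDT1, was at 58.7 and 72.6 CPM with SCR, 30.9 and 29.9 with KD1, 53.2 and 39.6 with KD2 and 47.3 and 47.4 with KD3 (log2 fold change -0.69, SE 0.13, adjusted p = 0.0125). Both were lowest with KD1, and neither overlapped SCR. POLE2 and PRIM2, subunits of DNA polymerase epsilon and primase, and GINS1, the partner of GINS2, fell with log2 fold changes of -0.68, -0.65 and -0.68. MELK, a kinase of mitotic cells, was at 60.8 and 77.7 CPM with SCR, 37.4 and 32.5 with KD1, 50.05 and 45.02 with KD2 and 37.3 and 40.8 with KD3 (log2 fold change -0.79, SE 0.11, adjusted p = 0.00412), without overlap. CENPI and CENPN, of the inner kinetochore, and SKA3, of the outer, fell with log2 fold changes of -0.80, -0.76 and -0.70.

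CKS1B, which encodes a small subunit bound to cyclin-dependent kinases, was low with KD3 as PLK1 was. It was at 186 and 202 CPM with SCR, 153 and 116 with KD1, 157 and 167 with KD2 and 59.3 and 52.1 with KD3. The KD3 libraries were below all others, with a log2 fold change against SCR of -1.80 (adjusted p = 5.94e-04), against -0.53 (adjusted p = 0.0565) for KD1 and -0.26 (adjusted p = 0.457) for KD2. FEN1, the flap nuclease, had values of 109 and 111 CPM with SCR, 69.8 and 78.7 with KD1, 108 and 81.2 with KD2 and 51.9 and 50.1 with KD3, and its log2 fold change with KD3 was -1.11 (adjusted p = 0.00266). It was named after its values were seen.

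Among 36 genes of G1 and of brakes on the cycle, 2 rose and 4 fell in the H1 average, where 2.23% of all genes rose and 4.93% fell. CCND2, cyclin D2, was at 89.4 and 78.6 CPM with SCR, 193 and 133 with KD1, 88.8 and 134 with KD2 and 186 and 161 with KD3 (log2 fold change 0.80, SE 0.19, adjusted p = 0.03501). BTG2, an antiproliferative gene and p53 target, was at 53.98 and 47.2 CPM with SCR, 76.9 and 69.5 with KD1, 58.7 and 83.9 with KD2 and 77.4 and 70.6 with KD3 (log2 fold change 0.53, SE 0.13, adjusted p = 0.0398). Both were high in knockdown libraries, with 1 KD2 library of CCND2 within the SCR range. WEE1, the kinase that restrains CDK1, was at 128 and 131 CPM with SCR, 88.8 and 83.6 with KD1, 86.2 and 96.2 with KD2 and 92.2 and 93.7 with KD3 (log2 fold change -0.53, SE 0.08, adjusted p = 0.00729), below SCR in all 6. E2F5, a repressor E2F, fell by 0.39 on the log2 scale (adjusted p = 0.0223). CDKN2B, the inhibitor p15, was under 1 CPM in every library, and its log2 fold change of -2.61 rests on few counts.

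CDKN1A, which encodes the inhibitor p21, was at 31.9 and 31.04 CPM with SCR, 40.00 and 48.96 with KD1, 24.2 and 41.6 with KD2 and 44.7 and 21.99 with KD3, with overlap and no call (log2 fold change 0.22, SE 0.28, adjusted p = 0.709). CDKN1B, p27, was at 74.2 and 74.4 CPM with SCR, 88.96 and 89.7 with KD1, 78.6 and 96.6 with KD2 and 83.1 and 86.7 with KD3, every knockdown library above SCR by a small margin (log2 fold change 0.23, SE 0.09, adjusted p = 0.164). CCND1, cyclin D1, was at 176 and 149.9 CPM with SCR, 78.3 and 81.4 with KD1, 211 and 193 with KD2 and 151 and 139 with KD3: KD1 was low and KD2 high, and the fold change with KD1 was -1.03 (SE 0.11, adjusted p = 0.00163). Of the factors that drive mitotic genes, FOXM1 was at 115 and 118 CPM with SCR, 84.7 and 84.7 with KD1, 116 and 96.2 with KD2 and 91.8 and 87.7 with KD3 (log2 fold change -0.33, SE 0.09, adjusted p = 0.0528), and MYBL2 was at 117 and 123 CPM with SCR, 80.2 and 92.97 with KD1, 109.6 and 88.7 with KD2 and 96.9 and 86.6 with KD3 (log2 fold change -0.38, SE 0.10, adjusted p = 0.04796). KD1 gave low libraries of both, and 1 KD2 library of FOXM1 lay within the SCR range.

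Some cell type markers were called in H1 as well. In the average, where 2.23% of all genes rose and 4.93% fell, 5 of 10 neural progenitor markers rose and 1 fell, 1 of 10 pluripotency markers rose and 4 fell, 3 of 10 neuron markers fell, 1 of 10 mesoderm and endothelium markers fell, and none of the 9 endoderm markers tested was called. POU5F1 was at 62.2 and 58.6 CPM with SCR, 25.3 and 24.5 with KD1, 36.7 and 21.8 with KD2 and 36.5 and 21.3 with KD3, lower in all knockdown libraries. The summed level of the neural progenitor markers was 1225 to 1583 CPM in the knockdown libraries, and that of the pluripotency markers 2086 to 2538 CPM, which spans the SCR range given above. Neuron markers, of cells that have left the cycle, summed to 588 to 666 CPM with SCR and 491 to 764 CPM with the hairpins. Mesoderm and endothelium markers summed to 167 to 169 CPM with SCR and 73.5 to 111 CPM with the hairpins. The part of these markers in the levels of the cycle genes was not tested.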

How the data were processed

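Stranded total RNA libraries of day 10 embryoid bodies were sequenced. The authors deposited a table of estimated counts per Ensembl gene identifier, with library totals that differ; fastp and kallisto were used, per the submitters' processing notes, with versions, build and strand setting not given in the sources used here. Because a read shared by near copies or overlapping genes is divided among them, such genes are uncertain.

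The estimated counts were rounded. Genes were kept by filterByExpr over the 7 groups and scaled by TMM, and the robust quasi-likelihood F-test of edgeR 4.0.16 (run in R 4.3.3 with limma 3.58.1) was applied to group means of all 12 libraries (line and knockdown for the comparison over both lines), with Benjamini-Hochberg adjustment over 24898 genes. The SE is |log2 fold change| over the root of F. Named genes were METTL14, 8 reference members, up to 8 members a list with the largest called change in the H1 average, up to 6 called between hairpins and up to 4 between lines, and up to 5 called genes of each pathway list with 5 reference genes. Members and lists were chosen with earlier results of these data known. Positions, lengths and GC content came from GENCODE 29 (GRCh38) by identifier, using the longest transcript. Fits were also run on simulated data whose changes were larger than those of the members. That run does not show how well changes of the members' size are found. Alternatives were other scalings, no filter, DESeq2 1.42.0, removal of a GC and length trend (splines of 5 and 4 degrees of freedom; 90.6% of genes tested could be given a GC content), group means, H1 alone and leaving out each library. Replicate libraries of a group differed by more than sampling noise, so none was counted as a duplicate.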

Additional observations from a re-analysis of the deposited data

Results flagged for a closer look

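Of 50 genes examined for a library far from the rest among the 6 H1 knockdown libraries, KIF11, a spindle motor, had 1: KD2 library 1 was at 88.9 CPM and the others at 45.0 to 61.4 CPM, a gap of 0.626 of the whole range, just over the critical value. Chance gives about 1 in 20 such results, so 1 in 50 is no more than that. The difference among the H1 hairpins was called for PLK1 (edgeR, adjusted p = 0.00409), CCNE1 (0.0121), PCNA (0.0205), RRM2 (0.0274) and MCM4 (0.0348). PLK1 was low with KD3, PCNA, RRM2 and MCM4 with KD1, and CCNE1 with KD1 and KD3. The cause of these differences was not tested.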

How the results depend on the processing

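Counts of called members are given as S phase and then mitotic. The log2 fold changes of MKI67 (main 0.10) and TOP2A (main -0.01) in the H1 average, neither called in any setting, changed sign: MKI67 was at -0.0532 with the GC and length trend removed and at -0.18 to 0.48 with a library left out, and TOP2A at 0.00274 with median of ratios scaling, 0.0193 with upper quartile scaling, 0.00277 with DESeq2, 0.0144 with the trend removed and -0.39 to 0.52 with a library left out. No other named result tested in this way changed sign. METTL14 over both lines, CENPA in the H1 average and the level differences of CDC6, CCNE1, MCM3, PCNA, CENPF, AURKB, BIRC5 and AURKA stayed called in each setting fitted. Without a filter on low counts, the H1 average gave 21 mitotic (main 13) and KD2 gave 4 and 2 (main 1 and 1). KD3 gave 15 mitotic (main 7) and both lines 2 S phase (main 0). Between hairpins there were 10 and 14 (main 4 and 1). Of all genes, 8.11%, 4.35%, 5.70%, 0.199% and 8.43% were called in these comparisons, against 7.16%, 1.54%, 2.98%, 0.213% and 3.54% in the main fit. With DESeq2 they were 3 and 2 for KD2, 7 and 14 for KD3, 5 and 12 over both lines, and 10 and 3 between hairpins. With the GC and length trend removed they were 3 S phase for KD2, 15 mitotic for KD3, 2 S phase over both lines, and 8 and 5 between hairpins. Over both lines, median of ratios scaling gave 1 S phase gene, upper quartile scaling 2, and group means 10 and 14. These called 0.305%, 0.309% and 10.8% of all genes. Leaving out each library in turn gave 0 to 11 and 1 to 15 for the H1 average, 2 to 13 and 1 to 17 for KD1, 0 to 1 and 0 to 1 for KD2, 0 to 3 and 1 to 10 for KD3, 0 to 3 and 0 to 4 over both lines, and 0 to 4 and 0 to 3 between hairpins. The share of all genes called also varied between these fits. The cause was not tested. The comparisons between lines could not be fitted without the MEL1 SCR or KD2 library. No paired analysis was possible because the labels carry no replicate numbers. The MEL1 SCR library, the shallowest, limits every MEL1 value.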
